A study of Homo sapiens with 9 samples.

Results

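The 43 genes described here are interferon-stimulated genes, chosen by symbol in the deposited gene table, where all 43 were found among 62666 listed genes. RNA was measured in 3 related human breast epithelial lines with 3 libraries each. MCF10A cells are immortal mammary epithelium that does not form tumours. MCF10AT1 cells are MCF10A cells carrying activated HRAS, a model of premalignant disease, and MCF10Ca1a cells descend from them and form carcinomas. No interferon or other inducer is named for any library, so the values are taken as levels in unstimulated culture, which the labels do not state. All lines were grown in DMEM/F12 medium with horse serum, insulin, glutamine, epidermal growth factor, hydrocortisone and cholera toxin. The serum was 2.5% for MCF10AT1 and 5% for MCF10A and MCF10Ca1a, so serum and line cannot be told apart in any comparison with MCF10AT1. Each line is represented by 1 culture lineage, and the labels do not say whether its libraries came from separate cultures, so p-values measure the spread between these libraries only. Of the 43 genes, 41 had enough reads to be tested, and MX2 and XAF1 did not.

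Interferons are secreted proteins that bind receptors at the cell surface. The receptors activate the kinases JAK1 and TYK2, or JAK1 and JAK2, which phosphorylate STAT proteins. STAT2 and IRF9 are part of a complex that binds the interferon-stimulated response element (ISRE), while STAT dimers bind the gamma-activated site (GAS), and the genes so induced encode antiviral effectors together with parts of the pathway itself. Many of these genes keep a basal level in epithelial cells without added interferon.

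Promoters (250 bases before to 50 after a start site) were matched by symbol in RefSeq, build GRCh38.p14, for 35 of the 43 genes. The core letters of the ISRE, GAAA, any 2 bases and GAAA again, were searched on both strands, and overlapping matches were counted. They occurred in at least 1 promoter of 25 of the 35 genes (71.4%) and of 4.38% of the 27305 genes in the table. The letters of the GAS, TTC, any 3 bases and GAA, occurred for 12 of the 35 genes (34.3%) and for 9.38% of all genes. The stretches below are examples from genes whose values are given library by library further on, chosen after their values were seen. Each is written 5′ to 3′ on the gene's own strand, with the matches to the ISRE letters or their reverse complement in capitals, and 30 bases or fewer are given where an annotated UTR overlaps the longer stretch.
BST2: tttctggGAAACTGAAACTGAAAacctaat
EPSTI1: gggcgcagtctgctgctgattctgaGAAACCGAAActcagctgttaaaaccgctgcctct
HERC5: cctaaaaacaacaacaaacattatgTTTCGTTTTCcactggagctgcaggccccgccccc
ISG15: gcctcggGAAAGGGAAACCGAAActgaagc
LGALS3BP: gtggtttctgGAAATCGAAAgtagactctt
PARP14: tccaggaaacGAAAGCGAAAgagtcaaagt
IFITM1: caaacagcagGAAATAGAAActtaagagaa
IFITM3: gGAAAAGGAAActgttgaGAAACCGAAAc
The BST2 stretch lies at chr19:17405738-17405767 on the minus strand and the EPSTI1 stretch at chr13:42992257-42992316 on the minus strand. HERC5 is shown at chr4:88457020-88457079 and ISG15 at chr1:1013377-1013406, both on the plus strand. LGALS3BP is shown at chr17:78979962-78979991 on the minus strand and PARP14 at chr3:122680800-122680829 on the plus strand. IFITM1 is shown at chr11:313990-314019 on the plus strand and IFITM3 at chr11:320885-320913 on the minus strand. BST2 and ISG15 each hold 2 overlapping matches, with the first beginning 130 and 113 bases before the start site. The match nearest to its start site among those shown is that of PARP14, 29 bases before it. A match is a run of letters and was not tested as a binding site.

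Library depth ran from 32.9 to 69.5 M counts, lowest in MCF10Ca1a. The difference between libraries of a line was measured as chi-square per degree of freedom and was unequal. MCF10A library 1 gave 32.2 against library 2 and 74.8 against library 3, while pairs within MCF10Ca1a, at lower depth, gave 2.51 to 4.41. All lines nevertheless share the same fit. All 7 markers of mammary epithelium were detected in every line, but their levels moved both ways. In MCF10Ca1a against MCF10A, KRT14 was 50.4-fold and KRT5 3.71-fold lower, while KRT8, KRT18, EPCAM, CDH1 and TP63 were higher, EPCAM by 8.81-fold. Among 8 leukocyte markers CD3E and NKG7 had 0 counts in all 9 libraries and PTPRC and LYZ at most 2 counts. The summed CPM (counts scaled to a common library size) of those 8 markers was nevertheless 21.5 to 26.9 in MCF10A, 8.02 to 8.94 in MCF10AT1 and 41.1 to 45.2 in MCF10Ca1a, carried by CD14 and CD68 in MCF10A and MCF10AT1 and by CD68 in MCF10Ca1a. That order is also the order of many interferon-stimulated genes below. The 6 fibroblast markers summed to 13.2 to 14.2, 33.8 to 35.0 and 5.28 to 5.95 CPM in the same order, and the 4 endothelial markers to 3.48 to 3.90, 3.58 to 4.65 and 42.1 to 49.5 CPM. DCN carried the fibroblast sum in MCF10AT1, with a mean of 30.7 CPM against 4.41 in MCF10A, while COL1A1 fell from 9.16 to 3.31. PECAM1 carried the endothelial sum in MCF10Ca1a, with 45.4 CPM against 3.11 in MCF10A, while KDR fell from 0.564 to 0.0094. The other fibroblast and endothelial markers were low throughout, so neither sum stands for its whole class. The part of all these markers in the results was not tested. In bulk RNA, fewer cells with a transcript and less of it per cell cannot be told apart.

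As a set, the interferon-stimulated genes were low in MCF10AT1 and mostly high in MCF10Ca1a. The mean CPM was lowest in MCF10AT1 for 30 of the 41 tested genes, against 25.1% of all 17910 genes tested. CMPK2 is among the 30 although it was tied with MCF10Ca1a at 0 counts, since ties were counted for the earlier line in the order MCF10A, MCF10AT1, MCF10Ca1a, for all genes alike. It was lowest in MCF10Ca1a for 8 and in MCF10A for 3, against 43.4% and 31.5% of all genes. MCF10Ca1a had the highest mean CPM for 24 genes, MCF10A for 13 and MCF10AT1 for 4, against 40.1%, 33.5% and 26.5% of all genes.

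In MCF10AT1 against MCF10A, 32 genes were lower and 6 higher by edgeR's quasi-likelihood test at an adjusted p under 0.05, and 3 did not pass. Over all genes tested 61.6% passed, 31.8% lower and 29.8% higher. The median log2 change was −0.79 for the interferon-stimulated genes and −0.00 for all genes. A change of at least 2-fold was reached by 12 genes that were lower and 2 that were higher, beside 8.64% and 9.36% of all genes. The shift was therefore one of many moderate decreases, with a few large ones described below.

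In MCF10Ca1a against MCF10A, 24 genes were higher, 14 lower and 3 did not pass, while 80.9% of all genes passed, 39.0% higher and 41.9% lower. The median log2 change was 0.62, against −0.05 for all genes. At least 2-fold higher were 15 genes and at least 2-fold lower 7, beside 21.2% and 21.7% of all genes. In MCF10Ca1a against MCF10AT1, 27 were higher, 7 lower and 7 did not pass, where 78.4% of all genes passed, 38.0% higher and 40.3% lower. There the median was 1.07, against −0.04 for all genes, and 1.10 over 40 genes when CMPK2, at 0 counts in both lines, was left out. At least 2-fold differences were seen for 21 higher and 3 lower genes, beside 18.2% and 19.5% of all genes. The 3 comparisons share libraries, so their values are given side by side and are not independent of each other.

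**Figure D1:**
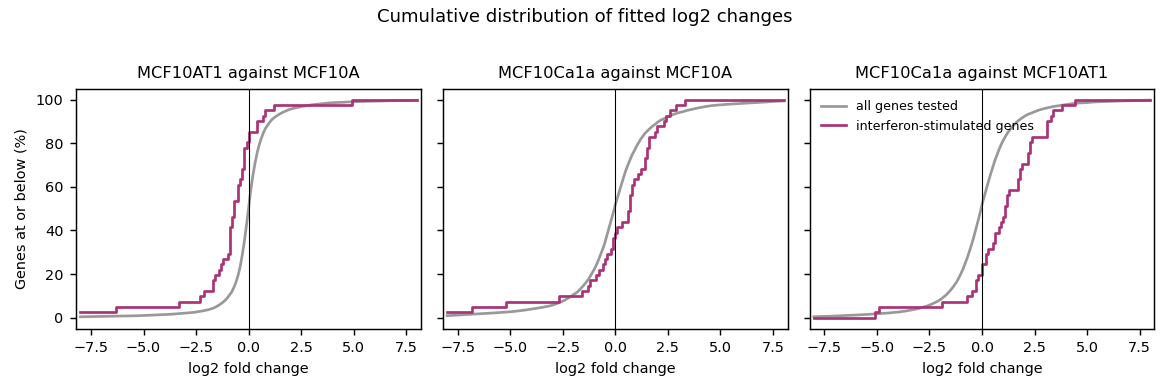
Cumulative percentage of genes (y axis) at or below a given fitted log2 fold change (x axis) for the 41 tested interferon-stimulated genes and all 17910 genes tested, in 3 comparisons. The line of the interferon-stimulated genes lies left of all genes around its median of −0.79 in MCF10AT1 against MCF10A and right of it around medians of 0.62 and 1.07 in the comparisons of MCF10Ca1a. CMPK2 is drawn at its fitted value, which is no bound.

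On the TPM scale, which is per length and allows genes to be compared, IFITM3, IFITM2, LGALS3BP and PLSCR1 were the most abundant over the 9 libraries. The 43 genes summed to 1994 ± 224 TPM (SD, n = 3) in MCF10A, 763 ± 45.6 in MCF10AT1 and 1407 ± 15.8 in MCF10Ca1a. Without those 4 genes the sums were 289 ± 22.8, 162 ± 6.94 and 607 ± 6.67 TPM. MCF10AT1 was lowest either way, but the order of MCF10A and MCF10Ca1a turned, because IFITM2 and IFITM3 made up most of the MCF10A sum.

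IRF9 is the DNA-binding partner of the STAT complex. It was lower than in MCF10A by 0.27 ± 0.0974 log2 units (SE) in MCF10AT1 and by 0.51 ± 0.104 in MCF10Ca1a. The first call was lost when either MCF10A library 2 or 3, or MCF10AT1 library 2 or 3, was left out, with adjusted p from 0.0651 to 0.134 by edgeR. It was also lost with length-scaled or scaled counts and on the TPM scale (adjusted p from 0.31 to 0.624 by edgeR or limma), and the second call was lost on the TPM scale (limma adjusted p from 0.094 to 0.191). Between MCF10Ca1a and MCF10AT1 the IRF9 change was −0.24 and missed the threshold (edgeR adjusted p = 0.0506), and it passed without MCF10A library 1 or 3, MCF10AT1 library 2 or MCF10Ca1a library 1, with adjusted p from 0.0112 to 0.0417, and without a filter on low counts (0.00395). STAT2 changed by −0.31, 0.57 and 0.87 for MCF10AT1 over MCF10A, then MCF10Ca1a over MCF10A, then MCF10Ca1a over MCF10AT1, the order of all triplets of log2 changes below.

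IRF1, a factor induced by interferon-gamma that activates many promoters of this kind, was at 17.8, 16.9 and 17.1 CPM in MCF10A, compared with 17.4, 17.2 and 15.7 in MCF10AT1 and 63.3, 60.2 and 63.4 in MCF10Ca1a. The MCF10A and MCF10AT1 libraries overlapped (log2 change −0.04 ± 0.0556), and every MCF10Ca1a library was above both, by 3.61-fold and 3.71-fold. IRF7, the amplifier of type I interferon production, had log2 changes of −0.29, 1.37 and 1.66. The decrease in MCF10AT1 was marginal (edgeR adjusted p = 0.0475) and was lost in 8 of the 9 fits that left out 1 library, all but that without MCF10A library 1, with adjusted p from 0.0572 to 0.195.

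The cytosolic RNA helicases were highest in MCF10Ca1a. DHX58, which encodes LGP2, a regulator of RNA sensing, stood at 0.795, 0.479 and 0.587 CPM in MCF10A, 1.29, 1.36 and 1.37 in MCF10AT1, and then 6.34, 6.39 and 5.25 in MCF10Ca1a. The 3 lines did not overlap, and DHX58 was one of the 3 tested genes, with ISG20 and MX1, whose mean was lowest in MCF10A. Its log2 changes were 1.11 ± 0.179, 3.27 ± 0.169 and 2.16 ± 0.154 (edgeR adjusted p = 0.00011, 3.37e-10 and 1.35e-08). IFIH1, the sensor MDA5, changed by −0.40, 1.35 and 1.75.

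The IFIT genes encode proteins that bind foreign RNA ends and block translation, and all 4 were lower in MCF10AT1 than in MCF10A. IFIT1 had 2.26, 1.98 and 2.44 CPM in MCF10A, against 0.825, 0.694 and 0.87 in MCF10AT1 and 0.95, 1.25 and 1.21 in MCF10Ca1a. It was thus clearly highest in MCF10A, with log2 changes of −1.48, −0.97 and 0.51. The last of these was lost without MCF10AT1 library 2 or MCF10Ca1a library 2 or 3, with edgeR adjusted p from 0.0645 to 0.0787. IFIT5 was at 44.6, 44.9 and 46.5 CPM in MCF10A, compared with 31.0, 31.8 and 31.2 in MCF10AT1 and 18.1, 18.3 and 19.4 in MCF10Ca1a, a stepwise order without overlap. IFIT2 and IFIT3 had other orders: IFIT2 changed by −0.85, 1.45 and 2.29 and was highest in MCF10Ca1a, while IFIT3 changed by −0.97, −0.24 and 0.74. The family did not move as 1 unit between MCF10A and MCF10Ca1a, where 1 member was higher and 3 were lower, although the IFIT3 change of −0.24 did not pass on the TPM scale (limma adjusted p from 0.115 to 0.198).

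The OAS genes encode the enzymes that make the 2-5A activator of RNase L, except OASL, which lacks that activity. OAS2 was at 2.79, 2.22 and 2.19 CPM in MCF10A, 0.78, 0.709 and 0.789 in MCF10AT1, and then 1.09, 0.713 and 0.959 in MCF10Ca1a. It was lower in both derived lines, which overlapped each other, with log2 changes of −1.66, −1.38 and 0.28 (the last not called). OAS3 changed by −0.98, −0.48 and 0.50 and OAS1 by −0.27, 0.22 and 0.49. The last OAS3 difference vanished when the deposited length-scaled counts were used (log2 0.03, edgeR adjusted p = 0.676). OASL passed in none of the 3 comparisons by edgeR, with log2 changes of −0.16, 0.04 and 0.20 and adjusted p of 0.456, 0.866 and 0.355.

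MX1, a dynamin-like GTPase that traps viral nucleocapsids, was a low-count gene with 40, 41 and 54 counts in MCF10A, against 65, 74 and 78 in MCF10AT1 and 50, 28 and 37 in MCF10Ca1a. It went against the set in MCF10AT1, where it was higher by 0.72 ± 0.204 log2 units, and changed by 0.69 in MCF10Ca1a against MCF10A. The second call was lost without MCF10Ca1a library 1 (log2 0.47, edgeR adjusted p = 0.0791). Its neighbour MX2 had 0 to 2 counts in each library and was not tested.

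**Figure D2:**
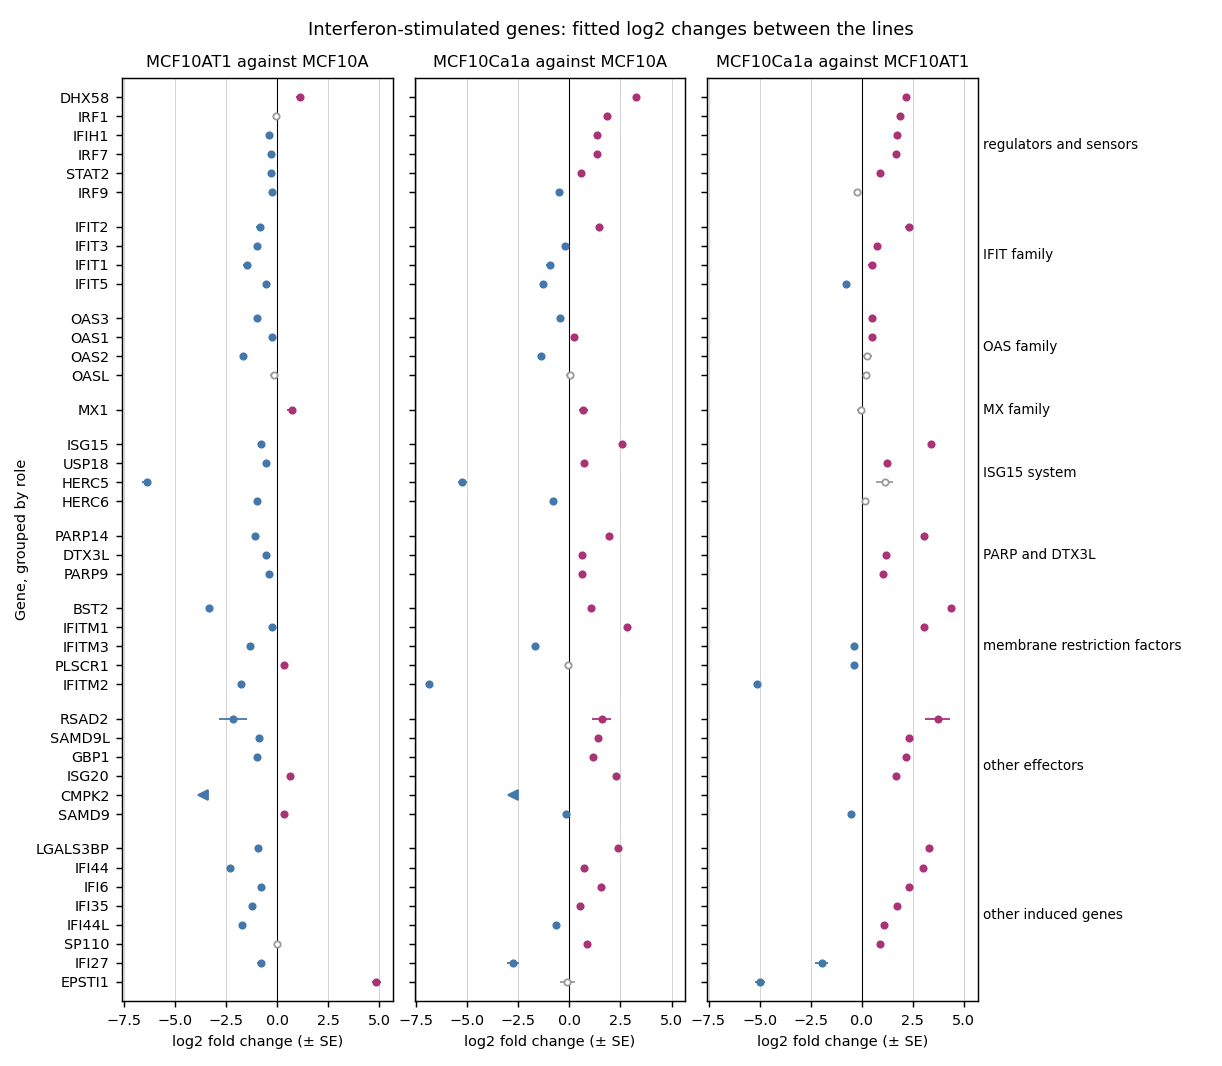
Fitted log2 fold change with its SE (x axis) of the 41 tested interferon-stimulated genes (y axis, grouped by role) in the 3 comparisons, with filled magenta points higher, filled blue points lower and open grey points not past an adjusted p of 0.05. CMPK2 is drawn as a triangle at the bound of its fold against a line with 0 counts, and left out where both lines had 0. Most points lie left of 0 in MCF10AT1 against MCF10A (32 lower, 6 higher) and right of 0 in MCF10Ca1a against MCF10AT1 (27 higher, 7 lower).

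ISG15 is a ubiquitin-like protein that is attached to newly made proteins by HERC5 and removed by USP18. In MCF10A ISG15 was at 2.53, 2.60 and 2.59 CPM, in MCF10AT1 at 1.33, 1.83 and 1.29, and in MCF10Ca1a at 15.68, 15.69 and 15.01. The lines did not overlap, and MCF10Ca1a was 6.01-fold above MCF10A and 10.4-fold above MCF10AT1. On the log2 scale the changes were −0.79 ± 0.124, 2.59 ± 0.109 and 3.38 ± 0.117 (edgeR adjusted p = 8.51e-05, 3.92e-11 and 7.72e-12).

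HERC5, the ligase, was lower in MCF10Ca1a, where ISG15 was higher. It had 304, 297 and 279 counts in MCF10A, compared with 4, 3 and 3 in MCF10AT1 and 3, 5 and 4 in MCF10Ca1a, so both derived lines were near 0. The summed CPM ratio was 86.4 (95% counting interval 46.8 to 181) for MCF10A over MCF10AT1 and 38.7 (22.1 to 75.2) for MCF10A over MCF10Ca1a, and these intervals cover counting error only. The fitted log2 changes were −6.37 ± 0.213 and −5.25 ± 0.214 (edgeR adjusted p = 1.83e-11 and 2.76e-11). HERC6, its neighbour on chromosome 4, was moderately lower, by 0.97 and 0.82 log2 units. Between MCF10Ca1a and MCF10AT1 HERC6 changed by 0.15 and did not pass, though it did without MCF10Ca1a library 1 (edgeR adjusted p = 0.031). USP18, which also restrains receptor signalling, followed ISG15 in direction with −0.54, 0.71 and 1.26.

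PARP9, DTX3L and PARP14 are neighbours on chromosome 3, and PARP9 and DTX3L proteins act as a complex in ADP-ribosylation and ubiquitylation. All 3 were lower in MCF10AT1 and higher in MCF10Ca1a, but PARP14 moved furthest. PARP14 was at 65.9, 62.1 and 56.4 CPM in MCF10A, 30.5, 29.3 and 27.0 in MCF10AT1, and then 237, 237 and 233 in MCF10Ca1a, with log2 changes of −1.09, 1.94 and 3.03. PARP9 changed by −0.42, 0.62 and 1.03 and DTX3L by −0.55, 0.63 and 1.18. The ratio of PARP14 to DTX3L in TPM was 0.810 ± 0.00691 (SD, n = 3) in MCF10A, 0.579 ± 0.0456 in MCF10AT1 and 2.03 ± 0.0713 in MCF10Ca1a. The PARP9 to DTX3L ratio stayed between 0.690 and 0.905 in all 9 libraries, so within the locus it was PARP14 that departed from the other two.

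BST2 (tetherin), a membrane protein that holds budding virus particles on the cell, had the largest dip in MCF10AT1 among genes with more than 100 counts in every library. The gene lies at chr19:17402939-17405648 (GRCh38, GENCODE 29). Its level was 39.5, 40.1 and 39.9 CPM in MCF10A, against 3.75, 3.91 and 4.11 in MCF10AT1 and 81.9, 80.3 and 83.6 in MCF10Ca1a. The libraries of a line lay close together and the lines far apart. BST2 was 10.2-fold lower in MCF10AT1 than in MCF10A, 2.06-fold higher in MCF10Ca1a than in MCF10A and 20.9-fold higher than in MCF10AT1. These are log2 changes of −3.34 ± 0.056, 1.04 ± 0.046 and 4.39 ± 0.0568 (edgeR adjusted p = 1.89e-14, 6.35e-11 and 2.99e-15).

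The IFITM genes encode small membrane proteins that block the entry of viruses into cells. They lie side by side on chromosome 11 and share near-identical sequence, and the annotated IFITM2 gene (chr11:307631-315272) spans IFITM1 (chr11:313506-315272), so the division of reads between them is uncertain. IFITM2 had 200, 184 and 177 CPM in MCF10A, compared with 56.8, 58.6 and 52.6 in MCF10AT1 and 1.62, 1.22 and 1.95 in MCF10Ca1a. It fell without overlap at each line, by 1.74 ± 0.0719 log2 units in MCF10AT1 and by 6.87 ± 0.109 in MCF10Ca1a against MCF10A (edgeR adjusted p = 1.45e-10 and 4.36e-15).

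IFITM3 was at 324, 304 and 290 CPM in MCF10A, 129, 126 and 113 in MCF10AT1, and then 93.6, 90.2 and 98.7 in MCF10Ca1a. It was lower in both derived lines, by 1.32 and 1.70 log2 units. The smaller step of −0.38 from MCF10AT1 to MCF10Ca1a did not pass on the TPM scale, where adjusted p ranged from 0.191 to 0.324 in limma. IFITM1 had 2.34, 2.44 and 2.64 CPM in MCF10A, against 2.04, 2.28 and 1.95 in MCF10AT1 and 17.1, 17.0 and 17.6 in MCF10Ca1a. It was the member of the family that was high in MCF10Ca1a, by 6.97-fold and 8.24-fold over the other lines. Its small decrease in MCF10AT1 (−0.24, edgeR adjusted p = 0.0429) was lost in 7 of 9 fits that left out 1 library, all but those without MCF10A library 1 or MCF10AT1 library 2, with adjusted p from 0.0539 to 0.139.

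Shares of the family's summed TPM, as the authors' quantification assigned the reads, are given with that uncertainty, and the assignment was not tested. IFITM1 took 0.342% ± 0.00819 (SD, n = 3) of the summed IFITM TPM in MCF10A, 0.780% ± 0.0586 in MCF10AT1 and 13.9% ± 0.331 in MCF10Ca1a. IFITM2 took 42.0% ± 0.245, 34.1% ± 0.661 and 1.49% ± 0.472. IFITM3 held the largest share in every line, at 57.7% ± 0.252, 65.1% ± 0.660 and 84.6% ± 0.253. The family sum was 1571 ± 183 TPM in MCF10A, 501 ± 36.3 in MCF10AT1 and 352 ± 6.85 in MCF10Ca1a.

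**Figure D3:**
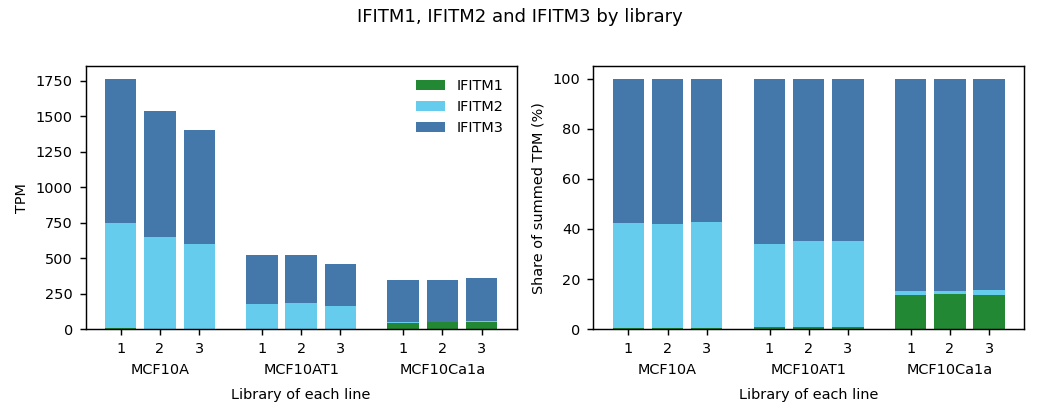
TPM of IFITM1, IFITM2 and IFITM3 stacked by library (left, y axis in TPM) and as shares of their sum (right, y axis in percent), with 3 libraries per line on the x axis. The sum is highest in MCF10A (1571 TPM on average), IFITM2 was assigned 1.49% of the sum in MCF10Ca1a, and IFITM1 holds 13.9% there against 0.780% or less in the other lines.

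PLSCR1, a membrane scramblase with antiviral activity, was at 35.9, 37.9 and 37.8 CPM in MCF10A, compared with 46.7, 49.5 and 46.0 in MCF10AT1 and 34.9, 37.2 and 36.1 in MCF10Ca1a. It was one of the 6 genes that were higher in MCF10AT1, by 0.35 ± 0.0499 log2 units, and its MCF10A and MCF10Ca1a libraries overlapped.

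Among the other effectors, CMPK2 and HERC5 were the genes all but lost from both derived lines. CMPK2, a mitochondrial nucleotide kinase, had 33, 41 and 41 counts in MCF10A and 0 in all 6 libraries of MCF10AT1 and MCF10Ca1a. Against a floor of 3 counts per library it was at least 12.5-fold lower in MCF10AT1 and at least 6.74-fold lower in MCF10Ca1a. RSAD2 (viperin), which overlaps CMPK2 at its edge, had 3, 3 and 9 counts, 1, 1 and 1 counts, and 8, 8 and 8 counts in the same order of lines. Its call between MCF10A and MCF10AT1 was lost without MCF10A library 3 (edgeR adjusted p = 0.149).

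ISG20, an RNA exonuclease, rose along the lines in the order MCF10A (3.91, 4.14 and 4.38 CPM), MCF10AT1 (6.78, 6.52 and 5.90) and MCF10Ca1a (20.8, 18.8 and 21.5). The lines did not overlap, and the log2 changes were 0.63, 2.30 and 1.67. The neighbours SAMD9 and SAMD9L, which restrict poxviruses, had different orders. SAMD9 was at 50.7, 51.1 and 50.7 CPM in MCF10A, 66.9, 67.1 and 61.6 in MCF10AT1, and then 44.2, 46.5 and 45.8 in MCF10Ca1a, highest in MCF10AT1 without overlap (log2 changes 0.36, −0.16 and −0.52). SAMD9L was lowest there, with −0.88, 1.42 and 2.30. GBP1, a GTPase that coats intracellular pathogens, changed by −0.997, 1.15 and 2.15.

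EPSTI1, a gene first described in epithelial cells grown with stroma, was the 1 strong exception in MCF10AT1. It lies at chr13:42886388-42992271. Its counts were 12, 17 and 22 in MCF10A, against 531, 518 and 419 in MCF10AT1 and 4, 13 and 8 in MCF10Ca1a. All MCF10AT1 libraries stood far above the others, which overlapped in CPM. EPSTI1 was 29.1-fold higher in MCF10AT1 than in MCF10A and 31.2-fold lower in MCF10Ca1a than in MCF10AT1, with log2 changes of 4.86 ± 0.208 and −4.96 ± 0.238 (edgeR adjusted p = 2.08e-10 and 2.13e-10). XAF1, a pro-apoptotic gene, also had its few counts there (3, 4 and 3), with 0 in MCF10A and at most 1 in MCF10Ca1a, and was not tested.

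LGALS3BP, a secreted glycoprotein that binds galectins, was at 164, 138 and 123 CPM in MCF10A, compared with 77.5, 73.4 and 70.1 in MCF10AT1 and 709, 706 and 760 in MCF10Ca1a. It was the most abundant of the 43 genes on the TPM scale in MCF10Ca1a, at 440 ± 12 TPM (SD, n = 3) against 298 ± 4.9 for IFITM3. Its log2 changes were −0.94 ± 0.0887, 2.36 ± 0.0912 and 3.30 ± 0.0951 (edgeR adjusted p = 6.49e-07, 1.63e-11 and 1.51e-12). IFI44 and IFI44L are paralogs next to each other on chromosome 1, and both were lowest in MCF10AT1. IFI44 had 4.77, 5.31 and 6.12 CPM in MCF10A, 1.32, 1.03 and 0.918 in MCF10AT1, and then 8.91, 9.01 and 8.66 in MCF10Ca1a. IFI44L had 6.22, 7.85 and 7.97, then 1.98, 2.31 and 2.35, then 4.95, 4.76 and 4.20 CPM. The pair differed in which of the other lines was higher: IFI44 changed by 0.71 and IFI44L by −0.66 from MCF10A to MCF10Ca1a. The IFI44L value did not pass with the deposited scaled counts or on the TPM scale, with adjusted p from 0.0633 to 0.248.

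IFI6, a small mitochondrial protein, changed by −0.77, 1.55 and 2.32, and IFI35, a partner of NMI, by −1.23, 0.50 and 1.73. SP110, a nuclear body protein, was level between MCF10A and MCF10AT1 within the spread (−0.02) and higher in MCF10Ca1a by 0.88 and 0.90. IFI27 was lower in MCF10Ca1a, with 60, 63 and 57 counts in MCF10A, against 29, 37 and 36 in MCF10AT1 and 3, 5 and 6 in MCF10Ca1a. The summed CPM ratio of MCF10A over MCF10Ca1a was 6.79 (95% counting interval 3.94 to 12.7) for IFI27.

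**Figure D4:**
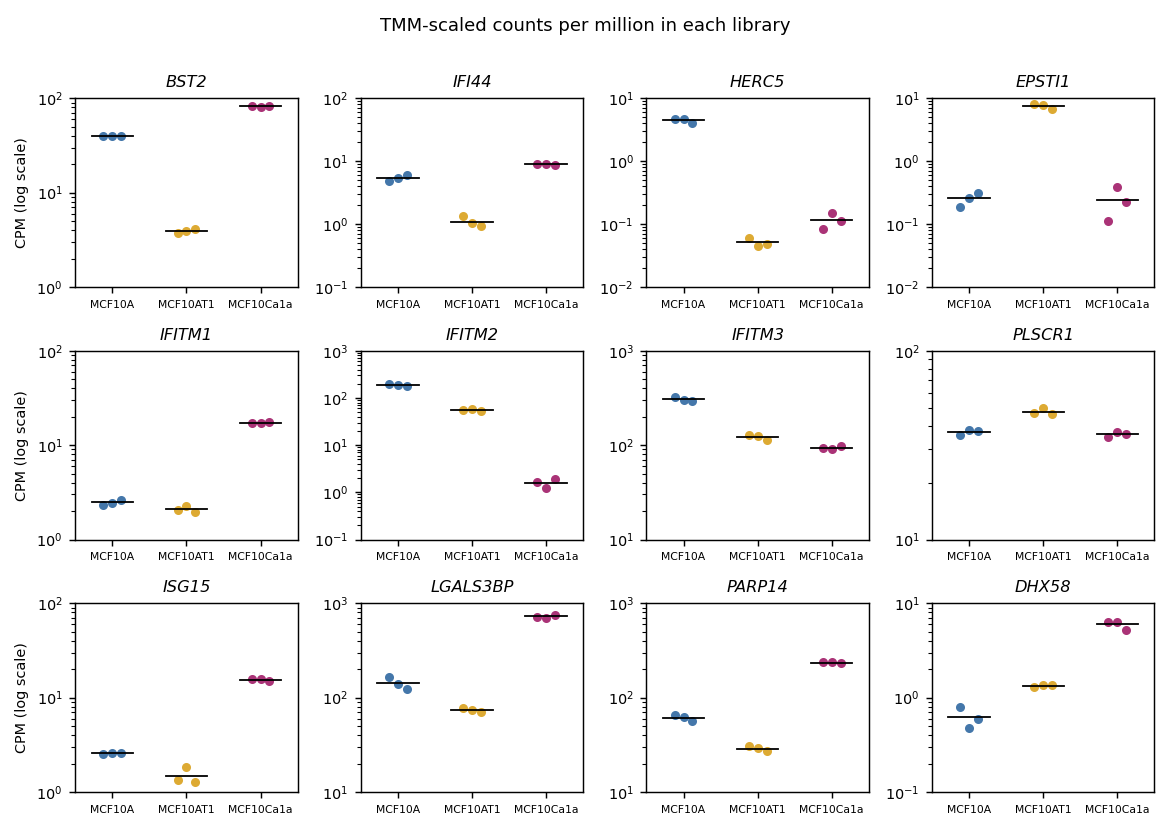
TMM-scaled CPM (y axis, log scale) of 12 interferon-stimulated genes in each of the 9 libraries (points), with the mean of each line as a bar. BST2 and IFI44 dip in MCF10AT1, HERC5 is near 0 in both derived lines, EPSTI1 is high in MCF10AT1 only, and ISG15, LGALS3BP, PARP14, DHX58 and IFITM1 are highest in MCF10Ca1a.

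By position, 24 of the 43 genes fell into 9 groups of neighbours with gaps under 500 kb, and members of a group often differed. On chromosome 10 the IFIT genes changed by −1.29 (IFIT5) to 1.45 (IFIT2) between MCF10A and MCF10Ca1a. BST2, HERC5, IFITM2 and EPSTI1, chosen after their values were seen, were also set beside all tested genes within 500 kb. BST2 fell by 3.34 in MCF10AT1, outside the range of −2.24 to 2.58 of its 25 neighbours, but its changes of 1.04 and 4.39 in MCF10Ca1a lay inside their ranges of −4.05 to 4.82 and −3.65 to 6.20. HERC5 changed by −6.37 and −5.25 against MCF10A, outside the ranges of −0.97 to 3.94 and −4.88 to 4.03 of its 11 neighbours. Its change of 1.12 between the derived lines, inside −4.14 to 2.19, was not called and rests on 10 and 12 summed counts. IFITM2 changed by −1.74, −6.87 and −5.13, each below the lowest of its 32 neighbours (−1.32, −4.53 and −4.96). EPSTI1 had 2 tested neighbours, which changed by 0.42 and 1.40 where it changed by 4.86, by −1.11 and 0.32 where it changed by −0.10, and by −2.51 and −0.10 where it changed by −4.96. Since the 4 were chosen for their size, this is a description.

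Medians with and without the ISRE letters had the same sign in each comparison. The 25 tested genes with a match to the ISRE letters had median log2 changes of −0.79, 0.63 and 1.12, and the 9 tested genes with a matched promoter but no such letters had −0.31, 0.50 and 0.87. Genes with the letters went opposite ways in the same line: EPSTI1 and BST2, printed above, were highest and lowest in MCF10AT1. No match in this window says only that the letters are absent from it.

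Transcript shares, estimated by the authors' quantification, shifted in some genes. IFIT5-201 took 72.8% ± 1.46 (SD, n = 3) of the IFIT5 TPM in MCF10A, 72.2% ± 1.32 in MCF10AT1 and 57.2% ± 1.77 in MCF10Ca1a. IFIH1-202 took 22.8% ± 3.31, 19.2% ± 6.34 and 3.51% ± 0.844 of IFIH1. For IFIT2 and SAMD9L the split between transcripts varied so much between libraries of a line that no share can be given. These shares were not tested.

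The pathway upstream was examined with a list of 42 genes for ligands, receptors, kinases, factors, sensors and inhibitors, of which 29 were tested. In MCF10AT1 against MCF10A, 16 were lower and 8 higher, in MCF10Ca1a against MCF10A 12 and 9, and in MCF10Ca1a against MCF10AT1 9 and 16. Of all genes 61.6%, 80.9% and 78.4% passed in these comparisons. The medians of the list were −0.27, −0.04 and 0.30, against −0.00, −0.05 and −0.04 for all genes. Of 13 ligands IFNE, an epithelial type I interferon, was the 1 tested, with 6, 8 and 6 counts in MCF10A, compared with 39, 33 and 44 in MCF10AT1 and 2, 5 and 1 in MCF10Ca1a. The other ligands had at most 2 counts in any library, including IFNB1 and IFNG. IFNE was thus highest in the line where most interferon-stimulated genes were lowest, with log2 changes of 2.54 ± 0.348 and −2.93 ± 0.427 in MCF10AT1 over MCF10A and MCF10Ca1a over MCF10AT1 (edgeR adjusted p = 2.51e-05 and 2.38e-05).

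All 6 receptor genes were lower in MCF10AT1 than in MCF10A, although the IFNAR1 call was lost without a filter, with length-scaled or scaled counts, and with those lines alone in the fit (edgeR adjusted p from 0.0579 to 0.124). IFNLR1, the specific chain for interferon-lambda, had 188, 190 and 163 counts in MCF10A, 27, 24 and 25 in MCF10AT1, and then 33, 32 and 34 in MCF10Ca1a, and changed by −2.80, −1.53 and 1.27. The others were lower in MCF10AT1 by 0.15 (IFNAR1) to 0.46 (IFNGR1) log2 units, with IFNAR2 at −0.39, IFNGR2 at −0.27 and IL10RB at −0.42. In MCF10Ca1a against MCF10A, IFNAR2 was lower by 1.04, IFNGR2 by 0.84 and IL10RB by 0.50, while IFNAR1 (−0.00, but 0.17 to 0.33 with scaled counts or TPM) and IFNGR1 (0.14) did not pass. IFNAR1 was called higher under the 5 settings with length-scaled or scaled counts or TPM (adjusted p from 0.0012 to 0.0155 by edgeR or limma). The IFNGR1 change did pass under 6 alternative settings, among them both DESeq2 settings and all on the TPM scale (adjusted p from 0.000224 to 0.0372).

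The kinase JAK1 changed by −0.14, 1.14 and 1.28 (the first not called), TYK2 by −0.65, −0.24 and 0.41, and JAK2 by 0.60, 0.42 and −0.18, the last turning to 0.14 or 0.17 on the TPM scale. IRF3 changed by 0.16, 0.66 and 0.49, the first being −0.01 on the TPM scale, and IRF2 by −0.06, −0.04 and 0.02, none of which passed in edgeR (adjusted p = 0.338, 0.494 and 0.757), though the last did on the TPM scale (limma adjusted p from 0.0046 to 0.00884).

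Sensors and adaptors were split. RIGI, the RNA sensor, was highest in MCF10Ca1a (0.28, 1.85 and 1.58), as were TRIM25, its ubiquitin ligase (0.23, 1.06 and 0.83), and the adaptor MAVS (−0.05 not called, 0.47 and 0.52). STING1, the adaptor of cytosolic DNA sensing, was lower at each line. It had 3595, 3308 and 3322 counts in MCF10A, against 1271, 1335 and 1145 in MCF10AT1 and 251, 211 and 287 in MCF10Ca1a, with log2 changes of −1.42, −2.85 and −1.43. CGAS, which makes the STING1 ligand, changed by −0.91, −0.13 (not called) and 0.78. TLR3 (−2.56, −2.35 and 0.21, the last not called) and the kinase IKBKE (−2.45, −3.04 and −0.59) were highest in MCF10A. TICAM1, the adaptor of TLR3, changed by −0.75, −0.34 and 0.41. MYD88, the adaptor of most other Toll-like receptors, changed by −0.30, −0.01 and 0.30, and the kinase TBK1 by −0.33, 0.08 and 0.41. The second value of MYD88 and of TBK1 did not pass. AIM2 had 1 to 33 counts per library and changed by 0.34 (not called), −2.18 and −2.53, and ZBP1 was not tested.

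Of the inhibitors, SOCS3, a feedback inhibitor of JAK kinases, rose along the lines with 179, 154 and 168 counts in MCF10A, compared with 629, 632 and 502 in MCF10AT1 and 1295, 1199 and 1304 in MCF10Ca1a. Its log2 changes were 1.84, 3.84 and 2.00, the largest increase in the list between MCF10A and MCF10Ca1a. SOCS1, at 14 to 43 counts, changed by 0.91, 1.70 and 0.79, of which the first was lost without MCF10A library 2 or 3 or MCF10AT1 library 2 or 3 and the last without MCF10AT1 library 1 or MCF10Ca1a library 3 (edgeR adjusted p from 0.0667 to 0.0981). PTPN2 changed by 0.41, 0.00 and −0.41, PTPN6 by −0.55, −0.41 and 0.14, and PIAS1 by −0.06, −0.57 and −0.52. The value of 0.00 for PTPN2, 0.14 for PTPN6 and −0.06 for PIAS1 did not pass, though those of PTPN6 and PIAS1 each did under 5 alternative settings, and the PIAS1 change of −0.52 turned to 0.10 on the TPM scale. RIGI in MCF10AT1 was lost without MCF10A library 2 or MCF10AT1 library 1 or 2 (edgeR adjusted p from 0.1005 to 0.114), and TRIM25 there without MCF10A library 2 (0.0538). The JAK2 difference of −0.18 was lost in 5 fits, without MCF10AT1 library 1 or 2 or any MCF10Ca1a library (edgeR adjusted p from 0.0502 to 0.131), and the IFNAR1 difference of 0.15 between the same lines without MCF10AT1 library 3 (0.0570). Calls were gained for JAK1 in MCF10AT1 (edgeR adjusted p = 0.00452) and IFNGR1 in MCF10Ca1a (0.006895) without MCF10A library 3, and for TLR3 between the derived lines without MCF10Ca1a library 3 (0.0372). CGAS in MCF10Ca1a against MCF10A was gained without MCF10A library 2 or 3 or MCF10AT1 library 2 or 3 (edgeR adjusted p from 0.0273 to 0.0415).

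**Figure D5:**
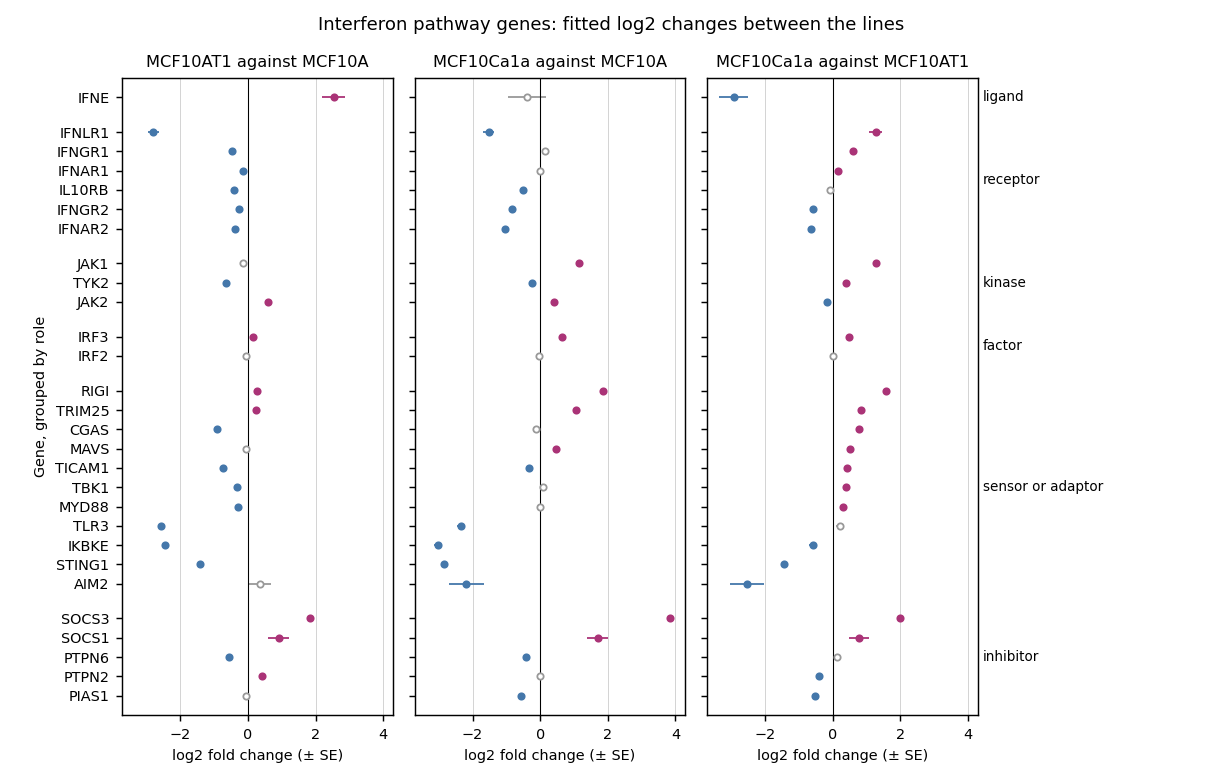
Fitted log2 fold change with its SE (x axis) of tested pathway genes (y axis, by role) in the 3 comparisons, with filled magenta points higher, filled blue points lower and open grey points not past an adjusted p of 0.05. IFNE is higher and all 6 receptors lower in MCF10AT1 against MCF10A, and SOCS3 and RIGI lie to the right and STING1, IKBKE and TLR3 to the left in MCF10Ca1a against MCF10A.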

How the data were processed

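RNA-seq of 9 libraries (3 lines, 3 libraries each) was used from 6 deposited tables. The authors deposited estimated counts and TPM per gene, quantified with Salmon on hg38 per the submitters' processing notes, together with length-scaled and scaled counts and transcript tables. The Salmon version, the annotation release and the use of strand are not given in the sources used here. Estimated counts were rounded and genes filtered (filterByExpr, minimum count 10, minimum total 15), leaving 17910 of 62666. All libraries entered 1 edgeR 4.0.16 quasi-likelihood fit (R 4.3.3) with TMM scaling, and p-values were adjusted by Benjamini-Hochberg over all tested genes, with a threshold of 0.05. The fit was also run on simulated counts with the same fixed spread for all genes, which does not test the calls made here. SEs were taken from the log2 change and its F statistic. Gene positions are from GENCODE 29, matched by gene ID. Libraries and lines were mapped from the sample labels. Genes were given by library when among the 6 largest changes in a direction and averaging 100 or more counts where highest, when at 3 counts or fewer in 1 line and 100 or more in another, or among the highest 4 by TPM. Others were added after their values were seen. The members, the pathway list and a list of other interferon-stimulated genes were chosen with earlier results of these data known. Alternatives used DESeq2 1.42.0 and limma 3.58.1 (log2 of TPM plus 1 or 0.1), other count tables, no filter, glmTreat, a replicate block, and leaving out each library. Intervals of count ratios cover counting error only. The values of some listed genes are not reported here, though the counts and medians of their lists include them.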

Additional observations from a re-analysis of the deposited data

How the results depend on the processing

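The median log2 change of the tested genes among the 43 kept its sign under every alternative for which it was computed (not for glmTreat), over 39 to 43 genes depending on the setting. In MCF10AT1 against MCF10A the median was −0.56 with log2(TPM + 1) and −0.53 with that and no filter, and −0.84 to −0.72 when 1 library was left out. In MCF10Ca1a against MCF10A it was 0.66 with DESeq2 size factors and with DESeq2's Wald test, 0.54 without a filter, 0.50 with length-scaled and with scaled counts, 0.52 with log2(TPM + 1), 0.37 with that and no filter, and 0.56 to 0.63 when 1 library was left out. In MCF10Ca1a against MCF10AT1 it was 0.94 without a filter and 1.16 with log2(TPM + 0.1). TPM scaling moved the median of all genes by −0.11 in the first comparison (+ 0.1), by 0.11 and 0.15 in the second and by 0.17 and 0.25 in the last (+ 1 and + 0.1). Requiring a minimum log2 change of 1 by edgeR's glmTreat left 1 higher and 10 lower genes, then 13 and 7, then 19 and 3. The same test left 1994, 6252 and 5148 of all genes, 6, 9 and 6 pathway genes and 9, 16 and 22 other interferon-stimulated genes. Signs turned for IFNAR1 in MCF10Ca1a against MCF10A (0.165 with length-scaled and 0.174 with scaled counts, 0.323 with log2(TPM + 1) with or without a filter, 0.329 with TPM + 0.1). They turned with the same TPM settings for JAK2 (0.136, 0.166) and PIAS1 (0.0955, 0.101) in MCF10Ca1a against MCF10AT1 and for IRF3 in MCF10AT1 against MCF10A (−0.00676, −0.00683), and with TPM + 0.1 for TNFSF10 (0.44) between the derived lines, called higher there (limma adjusted p 0.0491). Same-numbered libraries of different lines did not deviate together (9 pairs, r from −0.0597 to 0.0451). Such values cannot tell whether a shared number marks a shared day or preparation. With the replicate number as a block the edgeR adjusted p was 0.0762 for IRF7 and 0.0642 for IFITM1 in MCF10AT1 against MCF10A, no longer called, and 0.0372 for IFNGR1 in MCF10Ca1a against MCF10A, newly called. Among the 43 genes, calls not named so far were lost for SAMD9 in MCF10Ca1a against MCF10A on the TPM scale, for OAS1 there without a filter, for MX1 in MCF10AT1 with log2(TPM + 1) and no filter, for IFIT1 between the derived lines without a filter or with scaled counts, and for RSAD2 in MCF10AT1 under 5 settings and in MCF10Ca1a with length-scaled counts. HERC6 between the derived lines was gained under 3 settings. In the pathway list, TPM scaling also ended calls of RIGI, TRIM25 and SOCS1 in MCF10AT1 and of TYK2, TICAM1, PTPN6 and AIM2 in MCF10Ca1a against MCF10A, of which SOCS1 and AIM2 were lost with length-scaled and scaled counts too. With log2(TPM + 1) and no filter, limma lost PIAS1 in MCF10Ca1a against MCF10A (adjusted p 0.066) and PTPN2 (0.057) and AIM2 (0.0523) between the derived lines. Calls were gained under 6 settings for JAK1 in MCF10AT1 against MCF10A (adjusted p from 0.0149 to 0.0427) and under 5 for PIAS1 there (0.0103 to 0.0255), for TLR3 between the derived lines (0.00018 to 0.0022) and for PTPN6 between them (0.0204 to 0.0439), by edgeR, DESeq2 or limma. Without a filter or with length-scaled or scaled counts, edgeR also called CGAS in MCF10Ca1a against MCF10A (0.00401 to 0.0173) and IL10RB between the derived lines (0.00727 to 0.0342), and without a filter it lost IFNAR1 between them (0.451). Of the other interferon-stimulated genes, GBP2 in MCF10Ca1a against MCF10A was lost with length-scaled and scaled counts (edgeR adjusted p 0.0713 to 0.0781), and TRIM22 in MCF10AT1 with TPM + 0.1 (0.252) and WARS1 there with TPM + 1 and no filter (0.0788) by limma. Depth limits RSAD2, CMPK2, MX2 and XAF1, all at 41 counts or fewer per library. The causes of these changes were not tested.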

Other observations

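Interferon-stimulated genes outside the 43 were read from a list of 49, of which 44 were tested. By edgeR 24 were lower and 8 higher in MCF10AT1 against MCF10A, 15 lower and 23 higher in MCF10Ca1a against MCF10A, and 9 lower and 30 higher in MCF10Ca1a against MCF10AT1. Of all genes 61.6%, 80.9% and 78.4% passed. The median log2 changes of the list were −0.24, 0.16 and 0.77, against −0.00, −0.05 and −0.04 for all genes. UBE2L6, the conjugating enzyme for ISG15, had 976, 985 and 1077 counts in MCF10A, 91, 81 and 76 in MCF10AT1, and then 696, 638 and 767 in MCF10Ca1a, with log2 changes of −3.59, 0.39 and 3.97. GBP2, a guanylate-binding protein, had 695, 658 and 616 counts, then 75, 75 and 84, then 425, 414 and 459, with changes of −3.05, 0.32 and 3.36. Both had their lowest counts in MCF10AT1. TRIM22, an antiviral ubiquitin ligase, had 2413, 2571 and 2759 counts in MCF10A, against 3848, 3790 and 3341 in MCF10AT1 and 4, 7 and 7 in MCF10Ca1a, with changes of 0.53, −7.81 and −8.34. APOL1, an apolipoprotein, rose at each line, by 1.49, 3.80 and 2.32. HELZ2 changed by −0.06 (not called), 2.55 and 2.62, WARS1 by 0.47, −1.18 and −1.65, and TNFSF10, the ligand TRAIL, by −2.02, −2.35 and −0.32 (the last not called, and higher by 0.44 with log2(TPM + 0.1), limma adjusted p 0.0491).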
